A study of Mus musculus with 25 samples.

Results

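Open chromatin of N1wt cells is described here from a pair of FAIRE peak lists, one called Total and one called Notch-dependent. FAIRE (formaldehyde-assisted isolation of regulatory elements) recovers DNA that is poorly covered by nucleosomes. The members are all listed regions on chromosomes 1 to 19 and X. They were taken by list and chromosome alone, with no cutoff of their own. There were 19479 open regions on these chromosomes, out of 222370 regions on any contig in the 9 lists of the series. Of these, 2396 were Notch-dependent and 17083 were other open regions, meaning Total regions that share no base with a Notch-dependent one. Notch-dependent regions therefore made up 12.3% of open regions, and shares within subsets are read against that value.

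The study mapped protein complexes and open chromatin in the mouse line mK4, which comes from kidney mesenchyme of the embryo, in 25 libraries. FAIRE accounts for 3 control libraries, 3 N1wt libraries and 1 N1wt input library. Every one of them carries the strain label CD1, and what N1wt and control cells received is not spelled out in the labels. The remaining libraries come from split DamID, which marks DNA where 2 tagged proteins meet, and from N1 ChIP, made through a myc tag. The split DamID pairs were N1/RBP, N1/MAML, N1/p300, N1/N1, Mef2c/MAML and Mef2c/p300, beside a Dam control. In the library titles the first protein of each pair carries the tag D and the second the tag AM-Ert2. N1/RBP, N1/MAML, N1/p300 and the Dam control had 3 libraries each and N1/N1 had 2. Mef2c/MAML, Mef2c/p300, N1 ChIP and the ChIP input had 1 library each. No label says whether libraries of a group came from separate cultures. The lists pool their libraries, so no region has a value per library, the depth behind a region is unknown, and no test between libraries could be run. Intervals in brackets are 95% intervals. For shares they are exact Clopper-Pearson intervals, and for medians they are exact order-statistic intervals. They cover counting error only and treat neighbouring regions as independent. The spread over the 20 chromosomes is given beside the main differences for this reason.

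Notch receptors are cut when a neighbouring cell presents a ligand. The freed intracellular part enters the nucleus and joins the DNA-binding protein RBP and the co-activator MAML, which brings in the acetyltransferase p300. Open regions outside gene starts are often enhancers, and enhancers of one gene frequently lie in groups along the chromosome. A region whose openness depends on Notch may bind the complex itself or lie downstream of it, and a peak list does not distinguish these.

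Both lists drew on the same intervals. All 2270 Notch-dependent regions that overlapped a Total region had its exact start and end, and 0 overlapped one with another boundary. The remaining 126 Notch-dependent regions, 5.26% (4.40 to 6.23%), shared no base with any Total region. This share was 15.7% when each list was first restricted to regions at or above its own median score, which also removes weaker Total regions that a Notch-dependent region could match. The peaks were numbered separately: 0 of the 2270 shared regions carried the same peak number in both lists. Numbers ran to 31522 in the Total list, which holds 19396 regions on all contigs, and to 12218 in the Notch-dependent list, which holds 2403. If the numbers count the peaks of 1 call each, 61.5% and 19.7% of the calls were deposited. The sources used here do not give the rule by which the rest were dropped.

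The same region usually scored lower as Notch-dependent than in the Total list. MACS, the peak caller, gives each peak a score, on a scale the files do not name. Scores are compared here as deposited, and a ratio of scores need not be a ratio of openness. For the 2270 shared regions the median score was 136 in the Notch-dependent list and 184 in the Total list, and the median ratio of the first to the second was 0.792. The score was lower in the Notch-dependent list for 1609 regions (70.9%), higher for 527 (23.2%) and equal within 0.005 for 134 (5.90%). Regions with a lower score had a median length of 871 bp and a median ratio of 0.669. Regions with a higher score had a median length of 767 bp and a median ratio of 1.15. The equal ones were the shortest, with a median of 640 bp, and lay farthest from their nearest open region, at a median of 30.3 kb against 9.47 kb for those with a lower score and 13.5 kb for those with a higher one. The middle 90% of ratios ran from 0.343 to 1.34, and the extremes were 0.102 and 2.65.

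**Figure D1:**
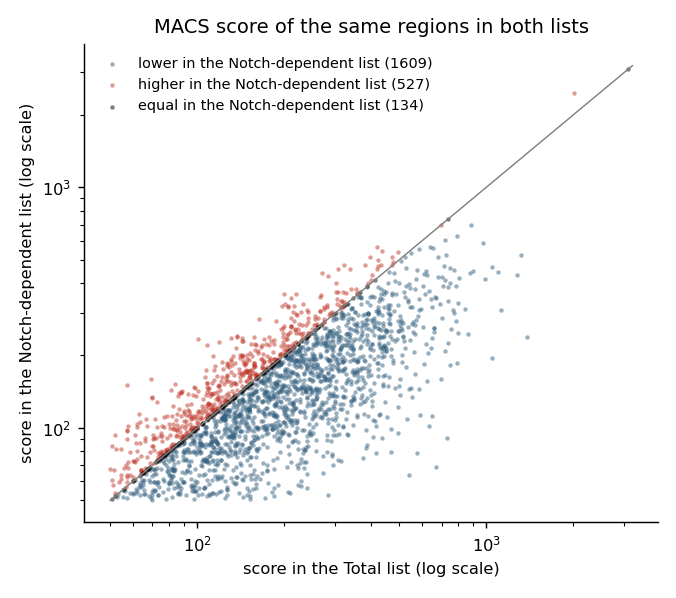
Each point is 1 of the 2270 regions found in both lists, with its MACS score in the Total list on the x axis and in the Notch-dependent list on the y axis (both log scales); the grey line marks equal scores. Most points, 1609, lie under the line, and 527 lie above it.

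Among Total regions, those with higher scores were Notch-dependent more often. The share was 8.24% (7.47 to 9.07%) with a Total score under 100, from 386 Notch-dependent and 4297 other regions. It was 11.3% (10.6 to 11.999%) between 100 and 200, 14.3% (13.4 to 15.3%) between 200 and 400, and 15.3% (13.7 to 17.1%) from 400 up. Scores in the Notch-dependent list have a floor of their own, the lowest being 50.16. For shared regions, scores in both lists had a Spearman rho of 0.734. How much of the rise in the share comes from that floor was not tested. The ratio of the scores fell as this share rose, from a median of 1 in the lowest class to 0.521 in the highest. No shared region scored under 50.32 in the Notch-dependent list, so low ratios were possible only at high Total scores. Part of the fall in the ratio was thus fixed in advance, and how large a part was not tested.

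Notch-dependent regions were shorter than other open regions. The median length was 815.5 bp (801 to 827 bp) for Notch-dependent and 915 bp (909 to 921 bp) for other regions, a difference of -99.5 bp. The middle 90% of lengths ran from 489.5 to 1742.5 bp and from 518 to 2006.9 bp. The median difference was negative on 19 of 20 chromosomes, with a mean of -109 ± 62.3 bp (SD, n = 20 chromosomes). Chromosome 19 had the largest, -228 bp. Chromosome X, with 23 Notch-dependent regions, had the only positive one, 18 bp. Notch-dependent regions covered 2.28 Mb and other regions 18.1 Mb.

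Put the other way, the Notch-dependent share fell with length and then levelled. It was 15.9% (13.5 to 18.5%) of open regions under 500 bp and 16.5% (15.4 to 17.5%) from 500 to 749 bp. It was 13.0% (12.2 to 13.9%) from 750 bp to under 1000 bp, and fell through 10.003 to 8.25% in the classes up to 1500 bp. Above that it stayed between 7.10 and 8.65%, with overlapping intervals. Over 2000 bp lay 77 Notch-dependent regions, 3.21% of them, and 866 other regions, 5.07%.

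Length and score are tied, so the difference was read again within classes of the Total score. Across regions, length and Total score had a Spearman rho of 0.462 over other regions and 0.610 over Notch-dependent ones. Both measures come from the same peak call, and regions are not replicates. Notch-dependent regions had the shorter median in each of the 4 score classes, by -111 bp under 100, -116 bp from 100 to 200, -134 bp from 200 to 400 and -124 bp from 400 up. In the class from 200 to 400, the Notch-dependent share was 20.5% (17.6 to 23.7%) of Total regions under 750 bp and 8.01% (6.42 to 9.84%) of those of 1500 bp or more. In the class from 100 to 200 it was 17.0% (15.5 to 18.5%) and 3.06% (1.93 to 4.596%). From 400 up the shares were 17.6% (9.47 to 28.8%) and 12.7% (10.2 to 15.5%), and these intervals overlap. Of the 16 classes of score and length, the share was highest in regions under 750 bp with a score from 200 to 400, and lowest, 2.04% (1.09 to 3.46%), in regions of 1000 bp to under 1500 bp with a score under 100.

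**Figure D2:**
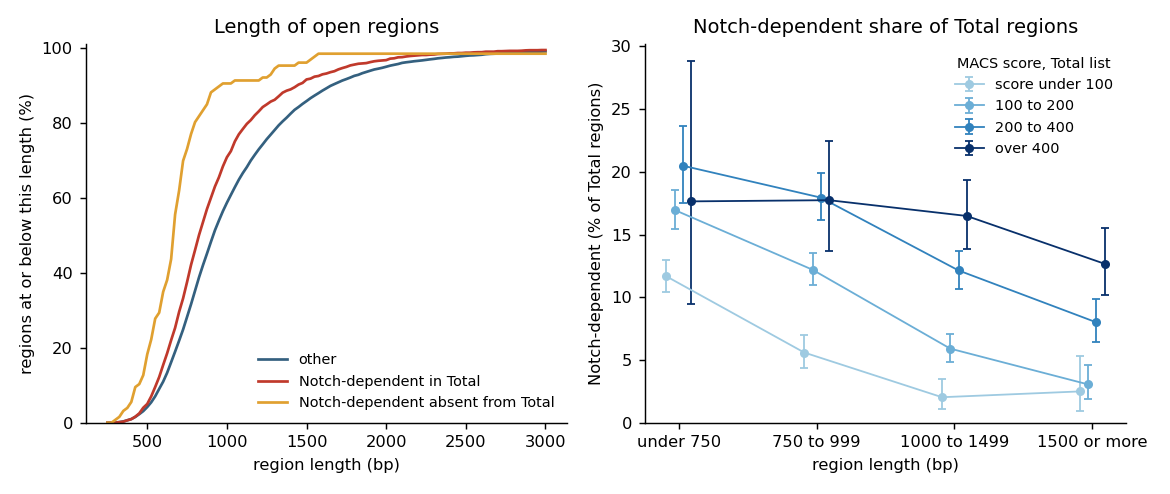
Left, the cumulative share (%) of regions up to each length (bp) for other open regions, Notch-dependent regions in the Total list and Notch-dependent regions absent from it; the curves are cut at 3000 bp. Right, the Notch-dependent share (%) of Total regions by length class, with 1 line for each class of the Total MACS score and 95% Clopper-Pearson bars; the share falls with length, from 20.5 to 8.01% for scores from 200 to 400, except for small steps up at the long end of the lowest class and the short end of the highest.

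Of the 5 longest Notch-dependent regions, 3 lay in a single stretch of chromosome 15. The lengths of the 5 ran from 5719 to 32532 bp, and 4 of them were on that chromosome (mm9). A region of 23523 bp, at 13129703 to 13153225, had a score of 67.19. After a gap of 49 bp followed one of 32532 bp, at 13153275 to 13185806, with a score of 226.55. After 24 bp came one of 1818 bp, at 13185831 to 13187648, with a score of 250.81, and after 39 bp one of 10451 bp, at 13187688 to 13198138, with a score of 211.31. These 4 regions form 1 nearly unbroken stretch of 68.4 kb, in which the last is absent from the Total list. All 4 N1 complexes marked each of the 3 long ones, and none marked the region of 1818 bp. Of the 31 open regions over 5000 bp, 9 lay on chromosome 15, between 8390902 and 13198138, and the Notch-dependent and other classes were mixed there: 4 were Notch-dependent and 5 were not. The longest of the others, at 13061362 to 13076207, measured 14846 bp. The fourth on chromosome 15, at 11449631 to 11455349, scored 188.78 over 5719 bp and lay 11.9 kb from its nearest open region. The only one of the 5 on another chromosome, chromosome 17 at 39979826 to 39986088, had 6263 bp and the highest score of either list, 3100 in both. Its nearest open region was 1031 kb away. Whether 3100 is an upper limit of the score is not stated, so its equal scores need not mean equal enrichment. What these long regions hold was not tested.

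The other 4 regions among the 5 with the highest scores were 1015 to 2130 bp long, above the median length of their class. On chromosome 2, 26314689 to 26316630 scored 2467.42, above its Total score of 2003.45. It begins a set of 4 Notch-dependent regions, with gaps of 931, 1009 and 316 bp, whose last member, 26320159 to 26321173, scored 699.42. All 4 N1 complexes marked each of these 4 regions, and N1 ChIP marked 3. In order, 0, 0, 1 and 1 Mef2c complexes marked them, and what these regions hold was not tested. No other open region lay within 12.7 kb before the set or 14.5 kb after it. On chromosome 1, 83116195 to 83117522 scored 737.49 in both lists and lay in none of the split DamID or ChIP lists. Also on chromosome 1, 43224971 to 43227100 scored 695.20, below its Total score of 886.07, and lay in all 6 split DamID lists.

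Notch-dependent regions stood about as close to open chromatin as other regions did. The distance to the nearest open region of either class, between facing edges, had a median of 11.6 kb (10.6 to 12.5 kb) for Notch-dependent and 13.0 kb (12.6 to 13.4 kb) for other regions. The difference of -1.40 kb was small beside its spread over chromosomes, where it was negative on 14 and positive on 6, with a mean of -1.15 ± 3.69 kb (SD, n = 20 chromosomes). It also changed with the score: within quartiles of the Total score it was 3.47, 0.31, -1.46 and -4.99 kb from the lowest to the highest. Within 1 kb of another open region lay 10.4% (9.24 to 11.7%) of Notch-dependent and 12.2% (11.7 to 12.7%) of other regions. Within 50 kb lay 81.0% and 81.8%.

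What differed was the class of the neighbour. The nearest open region was itself Notch-dependent for 735 of 2396 Notch-dependent regions, 30.7% (28.8 to 32.6%), against 1658 of 17083 other regions, 9.71% (9.27 to 10.2%). These shares lie on either side of the 12.3% of all open regions. The difference of 21.0 points was positive on all 20 chromosomes, with a mean of 19.3 ± 6.52 points (SD, n = 20 chromosomes). It was lowest on chromosome 6, at 6.38 points, and highest on chromosome 8, at 30.3 points. Within quartiles of the Total score it was 19.1, 18.4, 20.8 and 25.1 points.

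Neighbours of the same class were most frequent at short range. Of adjacent open regions less than 1 kb apart, 46.5% of those beside a Notch-dependent region were Notch-dependent, against 6.28% of those beside another open region. At 5 to 20 kb these shares were 28.8 and 10.4%, and at 100 to 500 kb they were 18.8 and 12.3%. Over 500 kb they were still 18.7 and 13.1%. The order of neighbours gave the same course: the Notch-dependent share fell from 30.7% for the nearest open region of a Notch-dependent one to 19.6% for the fifth and 13.9% (12.5 to 15.3%) for the tenth. Around other regions it was 9.71% for the nearest and 11.0% (10.5 to 11.5%) for the tenth.

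**Figure D3:**
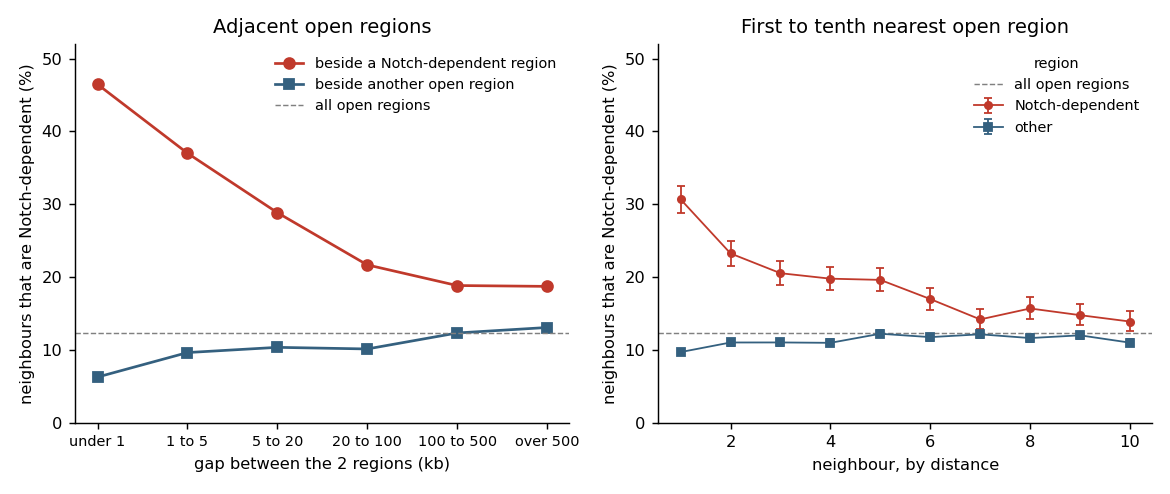
Left, the share (%) of neighbours that are Notch-dependent beside a Notch-dependent region (red) and beside another open region (blue), by the gap (kb) between adjacent open regions. Right, the same share for the nearest to the tenth nearest open region, with 95% Clopper-Pearson bars; the dashed line marks 12.3%, and the red series falls from 30.7 to 13.9%.

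Distances to Notch-dependent regions gave the same picture on a common target. The nearest other Notch-dependent region was a median of 87.3 kb (76.9 to 95.9 kb) from a Notch-dependent region and 223 kb (217 to 230 kb) from another open region. Within 10 kb of one lay 19.7% (18.2 to 21.4%) of Notch-dependent and 5.57% (5.23 to 5.92%) of other regions. Within 50 kb lay 40.7% (38.7 to 42.6%) and 19.4% (18.8 to 20.01%). Other open regions were closer to their own, more numerous class, at a median of 14.9 kb, and Notch-dependent regions stood a median of 22.2 kb from an other region.

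Regions linked by gaps of up to 50 kb made 113 groups of 3 or more Notch-dependent regions. These groups held 408 regions, 17.0% of all. Among the more numerous other regions, linked with one another in the same way, 62.2% stood in groups of 3 or more. The number of groups depends on the settings: it was 29 with links of 10 kb, 240 with links of 200 kb, and 35 among regions at or above the median score of their list. A further 566 regions stood in 283 pairs and 1422 stood alone. Uninterrupted runs, with no other open region between, were mostly short: 1367 regions formed runs of 1, 289 runs held 2, and the longest run held 12.

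The largest groups held 6 regions each, and 7 groups had that size. The one with the most covered bases lay on chromosome 19, 22979249 to 23036199, with no other open region inside its 57.0 kb. Its scores ran from 166.14 to 389.92, and an N1 complex marked 3 of its 6 regions. A pair of further groups lay on chromosome 3, at 105003044 to 105031839 and 105175011 to 105214255, each with 6 Notch-dependent and no other open regions. In the first, an N1 complex marked 5 of 6, and in the second 2 of 6. On chromosome 11, 112840145 to 112965298 held 2 other regions beside the 6, and all 4 N1 complexes marked 4 of the 6. On chromosome 5, 148513793 to 148605218 held 1 other region, and an N1 complex marked 5 of 6. These 5 groups thus ranged from 2 to 5 regions with an N1 complex.

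Notch-dependent regions were spread unevenly over chromosomes. The share of open regions that were Notch-dependent was lowest on chromosome X, 6.28% (4.02 to 9.28%) of 366, and highest on chromosome 3, 16.4% (14.3 to 18.6%) of 1216. Chromosome 4 came next to X with 8.01% (6.49 to 9.75%). Chromosomes 1, 13 and 19 stood with chromosome 3, at 16.1 to 16.3%. Neighbours in this order did not differ beyond their intervals. The intervals lay below 12.3% on chromosomes 4, 7, 9, 11 and X and above it on chromosomes 1, 3, 8, 13 and 19. The mean over chromosomes was 12.2 ± 2.88% (SD, n = 20 chromosomes). Chromosomes 11 and 19 had almost the same number of open regions per Mb, 13.6 and 13.5, and Notch-dependent shares of 10.2% (8.72 to 11.7%) and 16.3% (13.8 to 19.1%).

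**Figure D4:**
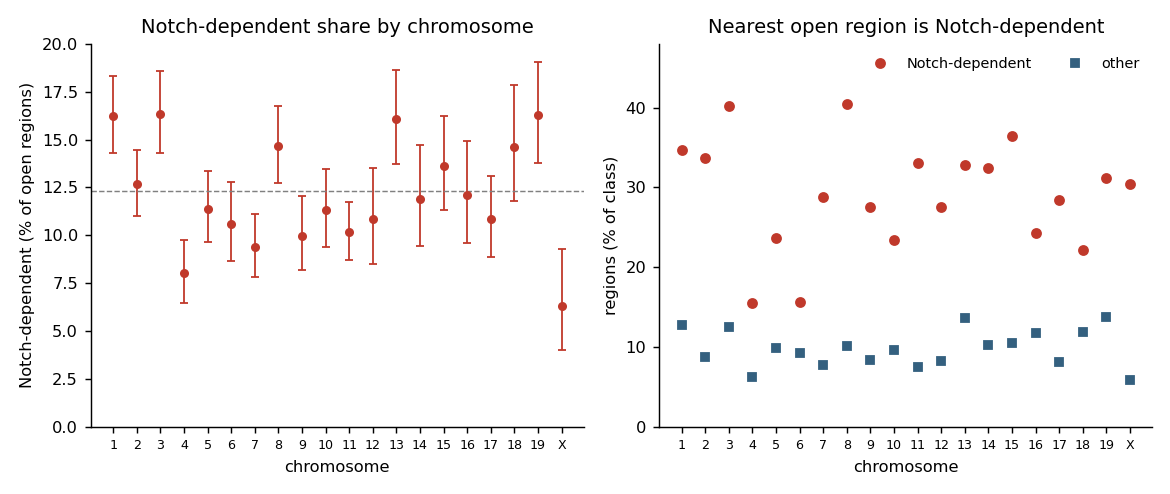
Left, the Notch-dependent share (%) of open regions on each chromosome with 95% Clopper-Pearson bars and a dashed line at 12.3%. Right, the share (%) of Notch-dependent (red) and other (blue) regions whose nearest open region is Notch-dependent; red lies above blue on all 20 chromosomes.

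In windows of 5 Mb the share varied more widely. Among 345 windows with 20 or more open regions it had a median of 11.5%, a middle 90% from 2.11 to 27.1%, and a range from 0 to 50%. The highest was the window from 135 to 140 Mb on chromosome 2, with 10 of 20 regions (27.2 to 72.8%). Next were 80 to 85 Mb on chromosome 8, with 18 of 46 (25.1 to 54.6%), and 80 to 85 Mb on chromosome 1, with 10 of 26 (20.2 to 59.4%). In 11 windows no region was Notch-dependent. Among these are 3 with 0 of 20, whose interval reaches 16.8%, and they start at 15 Mb on chromosome 17, 155 Mb on chromosome 4 and 55 Mb on chromosome 6. Crowded windows had a lower share, 9.65% (8.88 to 10.5%) in the 52 windows with 80 or more open regions, against 14.1% (13.1 to 15.2%) in the 146 windows with 20 to 39. In windows with 1 to 9 open regions it was 7.48% (5.10 to 10.5%). Counts of Notch-dependent and other regions over the 523 windows with an open region had a Spearman rho of 0.693, in windows that share the amount of open chromatin.

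The Notch-dependent regions missing from the Total list were short and scored low. Their median length was 663 bp (632 to 694 bp), against 825 bp (811 to 841 bp) for those in the Total list. Their median score was 79 (73.1 to 93.7), against 136 (132 to 140.1). Of Notch-dependent regions with a score under 75, 57 of 372 were missing, 15.3% (11.8 to 19.4%). It was 6 of 414 for scores from 150 to 200, 3 of 393 from 200 to 300 and 2 of 186 from 300 up. By length, 17.0% (11.1 to 24.5%) of those under 500 bp were missing and 1.46% (0.590 to 2.99%) of those from 1000 bp to under 1500 bp. The lowest score in either list was just above 50, at 50.01 in the Total and 50.16 in the Notch-dependent list.

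They also stood farther from the rest of open chromatin at short range. The nearest Total region was a median of 18.9 kb (12.4 to 26.1 kb) away, against 11.5 kb (10.3 to 12.4 kb) for a Notch-dependent region of the Total list. Within 5 kb of one lay 16 of 126, 12.7% (7.44 to 19.8%), against 31.6% (29.7 to 33.5%). Within 50 kb the shares were 81.0 and 80.7%. Short Notch-dependent regions stood about as far away: those up to 715 bp lay a median of 17.9 kb from any open region. The part of length in the distance of the missing regions was not tested. The missing regions spread over all 20 chromosomes, from 1 on X and 2 each on chromosomes 4 and 18 to 17 on chromosome 3.

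A few of the missing regions had high scores. The highest, on chromosome 14 at 66519124 to 66520078, scored 342.96 over 955 bp and stood 5.61 kb from its nearest open region, which is Notch-dependent. Also on chromosome 14, 8702943 to 8704452 scored 312.39 over 1510 bp, and 3 N1 complexes marked it. On chromosome 19, 53880978 to 53882021 scored 283.88 over 1044 bp and lay in no other list. On chromosome 13, 32813394 to 32814041 scored 225.95 over 648 bp, with 2 N1 complexes. The fifth is the region of 10451 bp on chromosome 15 described above.

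At the other end stood Notch-dependent regions with no open region near them. The most isolated, on chromosome 16 at 73483466 to 73484269, was 2283 kb from any other, scored 237.44 in both lists, and was marked by 3 N1 complexes. On chromosome 3, 43749448 to 43750230 was 2202 kb away, scored 255.95, and lay in no other list. On chromosome 6, 104657237 to 104658384 was 2060 kb away, scored 142.57, and lay in no other list either. On chromosomes 13 and 10, 87770368 to 87772263 and 47173109 to 47175799 were 1583 and 1578 kb away. They scored 60.64 and 87.63, and both Mef2c complexes marked each of them, beside 3 and 2 N1 complexes.

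Overlap with N1 complexes rose with region length in both classes, and Notch-dependent regions had the higher share at each length. The classes of length were up to 715 bp, above that to 950 bp, and over 950 bp. These divide Notch-dependent regions into 803, 796 and 797. At least 1 N1 complex marked 49.6% (46.1 to 53.1%) of the shortest Notch-dependent regions and 38.7% (37.2 to 40.3%) of other regions of that length. In the middle class the shares were 62.9% (59.5 to 66.3%) and 48.9% (47.6 to 50.3%), and in the longest 81.6% (78.7 to 84.2%) and 67.9% (66.9 to 69.0%). For N1/p300 alone they were 31.0 and 18.7%, 40.8 and 25.3%, and 60.9 and 42.3%. Over all lengths, any N1 complex marked 64.6% of Notch-dependent and 55.3% of other regions. That difference is smaller than the one in any of the 3 length classes. Mef2c complexes, with 1 library each, followed a like course. At least 1 of them marked 35.0% (31.7 to 38.4%) of the shortest Notch-dependent and 30.6% (29.1 to 32.01%) of the shortest other regions, and these intervals overlap. In the middle class the shares were 46.2% (42.7 to 49.8%) and 36.8% (35.5 to 38.2%), and in the longest 63.4% (59.9 to 66.7%) and 54.5% (53.4 to 55.6%).

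N1 ChIP regions, from 1 ChIP and 1 input library, lay the other way round at each length. The name of their list refers to a ratio to input and to repeat masking, and what these left out is unknown. N1 ChIP regions overlapped 1.37% (0.686 to 2.44%) of the shortest Notch-dependent regions and 7.78% (6.98 to 8.65%) of other regions of that length. In the longest class the shares were 6.02% (4.47 to 7.91%) and 29.9% (28.9 to 30.9%). Proximity to a Notch-dependent region went with a lower share too. Of other regions, 14.2% (12.5 to 15.9%) overlapped N1 ChIP where the nearest open region was Notch-dependent, and 21.3% (20.6 to 21.9%) where it was another one. Their median lengths were 865.5 and 920 bp. The part of length in this difference was not tested. For any N1 complex the same comparison gave 56.2% (53.7 to 58.6%) and 55.2% (54.4 to 56.0%), which do not differ beyond their intervals.

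**Figure D5:**
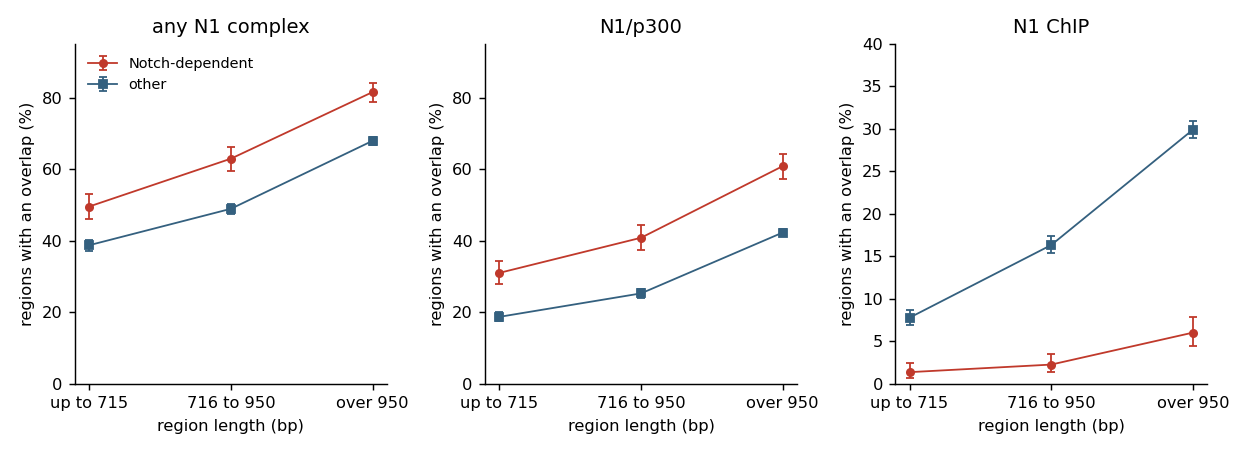
Share (%) of Notch-dependent (red) and other (blue) open regions that overlap any N1 complex, N1/p300 or N1 ChIP by 1 bp or more, by region length (bp), with 95% Clopper-Pearson bars. The red points lie above the blue ones for the complexes and below them for ChIP, as in the longest class with 81.6 against 67.9% and 6.02 against 29.9%.

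Notch-dependent regions in pairs or groups had higher shares with an N1 complex than those alone. Any N1 complex marked 62.0% (59.37 to 64.49%) of regions alone, 68.6% (64.55 to 72.36%) of those in pairs and 68.6% (63.88 to 73.10%) of those in groups of 3 or more. The interval of the pairs lies just above that of regions alone, and that of the larger groups overlaps it. For N1/p300 the shares were 41.4% (38.8 to 44.03%), 48.4% (44.2 to 52.6%) and 48.04% (43.1 to 53.01%), with the same relation of intervals. N1 ChIP marked 2.53% (1.78 to 3.49%) of regions alone, 3.36% (2.03 to 5.19%) of pairs and 5.39% (3.41 to 8.05%) of larger groups. Median lengths were 801.5, 808.5 and 865 bp in that order, and the part of length in these differences was not tested. Regions 50 kb or more from any open region had the lower shares in both classes, 54.7% (50.02 to 59.4%) of 455 Notch-dependent and 45.0% (43.3 to 46.8%) of 3107 other regions for any N1 complex. Within 5 kb of another open region the shares were 72.5% (69.2 to 75.7%) and 63.9% (62.6 to 65.2%). Their median lengths were 750 and 858 bp far from other open regions, and 862 and 947 bp near them. Of the 126 regions missing from the Total list, an N1 complex marked 46.0% (37.1 to 55.1%). That is below the 65.7% of Notch-dependent regions in the Total list, and close to the 49.6% of the shortest Notch-dependent regions. A Mef2c complex marked 35.7% (27.4 to 44.7%) of them, against 48.9% (46.8 to 50.9%) of Notch-dependent regions in the Total list, 43.5% of other regions and 35.0% of the shortest Notch-dependent regions.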

How the data were processed

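The authors deposited lists of regions in build mm9, per the submitters' processing notes. FAIRE peaks were called by MACS in Galaxy, per the file headers, and carry the deposited MACS score. FAIRE DNA was set against input DNA, per the labels' protocols, but which control gave the Notch-dependent list is not stated. The aligner, the caller's version and the rule for Notch dependence were not given in the sources used here. Split DamID regions carry a deposited score, for signal relative to Dam with a confidence limit of 0.999 per the file headers. For ChIP the authors deposited a signal for ChIP and for input and their ratio. Only positions were used from the split DamID and ChIP lists. Lists were matched to complexes, and the FAIRE lists to N1wt, by initials.

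In Python 3.11.15 with pandas 2.3.3 and scipy 1.17.1, 1 base was added to FAIRE starts, and regions on other contigs (43 Total, 7 Notch-dependent) were left out. Regions overlapped if they shared 1 bp. Distances are bases between facing edges. Groups link Notch-dependent regions with gaps of up to 50 kb. Overlap, distance and grouping functions were tested on simulated data and gave 0 differences from a plain loop over 1200 cases. Named regions are the 5 highest in score, length, isolation and score among those absent from the Total list, the 5 largest groups, and the 3 windows of 5 Mb at each end. The chromosome 15 and chromosome 2 stretches around them were added after their values were seen. Members, lists and classes were chosen with earlier results of these data known. No sequence is printed and no gene is named, since no mm9 genome or annotation was used here.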

Additional observations from a re-analysis of the deposited data

How the results depend on the processing

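Of 63 alternative values for 7 summary results, 17 moved by more than the 95% interval of the Notch-dependent value behind them or, for a count, by over 1.5 times. Only the length, distance and neighbour differences could change sign, and none of their alternative values did. Within single quartiles of the Total score, however, the distance difference was positive in quartiles 1 and 2, at 3.47 and 0.31 kb. Overlap by 50% of the shorter region and by the region centre could change nothing, since every overlapping pair has the same ends. With scores at or above each list's median, the length difference was -135 bp, the distance difference -6.74 kb and the neighbour difference 23.0 points. Under that setting 31.9% of Notch-dependent regions had another within 50 kb, there were 35 groups of 3 or more, and 15.7% were absent from the Total list. With regions within 500 bp merged, the length difference was -115 bp, the neighbour difference 19.03 points and the share within 50 kb 38.6%. As the median of the quartiles of the Total score, the length difference was -125.5 bp and the distance difference -0.577 kb. As the median of the 4 fixed score classes, added after seeing the data, the length difference was -119.75 bp. For neighbours 1 kb or more away, also added, the difference was 18.7 points. With links of 10 kb, 19.7% were linked, in 29 groups of 3 or more, and with 200 kb 66.3%, in 240 groups. Autosomes alone, regions up to 5000 bp and leaving out chromosome 3 moved no value that far where run, nor did distances between centres or the Notch-dependent regions of the Total list alone, the last added after seeing the data. The lists give no read depth, so what depth limits is unknown. The causes were not tested. No library could be left out, since each list pools its libraries. No paired analysis was possible because the lists give no value per library.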

Other observations

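Outside the chromosomes used, the Total list held 43 regions and the Notch-dependent list 7. Sequence assigned to chromosome Y without a position held 10 Total and 3 Notch-dependent regions, and that of chromosome 1 held 6 and 2.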
